A study of Mus musculus with 10 samples.

Results

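The cycling cells of the stromal vascular fraction (SVF) of inguinal white adipose tissue (iWAT) were the cells with at least 2 UMIs, unique molecules of captured RNA, summed over 10 genes of mitosis and DNA replication, whatever their lineage. The 10 genes were Mki67, Top2a, Tpx2, Ube2c, Cenpf, Cdca8, Birc5, Nusap1, Incenp and Knl1. The rule was met by 352 of 10914 cells, of which 282 came from 8985 Bbs8 KO cells and 70 from 1929 Bbs8 WT cells. The cells were thus selected on their measured UMIs of these 10 genes, whose values are given as a description only. The SVF, the cells left after collagenase II and DNAse I digestion of the fat and lysis of red cells, was taken from lean mice aged 7 weeks, a Bbs8 KO mouse lacking Bbs8 in the whole body and a Bbs8 WT mouse with intact Bbs8. Each cell was lysed beside a barcoded bead in a well of a Seq-Well S3 array, and its transcripts were sequenced. The study text names a single mouse per genotype and the labels list 5 samples for each, here seen as 5 barcode sets per genotype, named KO5_p2, KO5_p3, KO6_p1, KO6_p2, KO6_p3, WT3_p1, WT3_p2, WT3_p3, WT4_p2 and WT4_p3. What the numbers after KO and WT stand for was not given in the sources used here. With 1 mouse per genotype there was no replicate check and no test of a difference between the mice, ranges over sets are not known to hold more than technical spread, and all intervals are 95% intervals that cover counting error only, exact ones except for differences between shares (Newcombe).

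A cell that leaves quiescence first copies its DNA in S phase and then condenses, aligns and separates its chromosomes in mitosis. Genes for replication peak in S phase, whereas genes for the mitotic cyclins, the spindle and the kinetochore peak in G2 and mitosis, so a cell that holds their transcripts together is taken to be in the cycle. The primary cilium, which the BBSome with its subunit BBS8 serves, is built on the mother centriole of resting cells and is taken down before division. Dividing cells of the SVF can be adipocyte precursor cells (APCs), which are stromal, or immune and endothelial cells.

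Promoters of many genes with a peak in G2 and mitosis hold 2 kinds of short elements, the CHR (letters TTTGAA, or TTCAAA on the other strand), known as a site of the DREAM and MuvB complexes, and the CCAAT box (CCAAT, or ATTGG on the other strand), known as a site of NF-Y. Promoter sequences from RefSeq (GRCm38.p6) were found for 8 of the 10 rule genes, not for Tpx2 and Incenp. In the 200 bases before the start, 3 of the 8 held a CHR and 5 of the 8 held a CCAAT box, against 12.5% and 29.3% of 32851 RefSeq promoters. All 3 with a CHR, Mki67, Top2a and Ube2c, also held CCAAT boxes, a pair present in 3.69% of the promoters. They are shown because the first 2 of them carried most UMIs of the rule, and CHR and CCAAT letters are in capitals. Top2a (chr11:99024190-99024389, minus strand) held CHR letters 179 and 23 bases before the start and 5 CCAAT boxes, Ube2c (chr2:164769729-164769928, plus strand) a CHR at 29 bases and 5 CCAAT boxes, of which those at 186 and 183 bases overlap, and Mki67 (chr7:135716380-135716579, minus strand) CHR letters at 116 and 98 bases and 3 CCAAT boxes. A match of letters is a description and not a bound site.
Top2a: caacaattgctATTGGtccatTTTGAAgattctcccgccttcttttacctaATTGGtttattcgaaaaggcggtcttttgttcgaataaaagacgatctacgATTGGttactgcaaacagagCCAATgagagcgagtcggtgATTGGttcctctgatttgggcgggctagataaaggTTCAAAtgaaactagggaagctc
Ube2c: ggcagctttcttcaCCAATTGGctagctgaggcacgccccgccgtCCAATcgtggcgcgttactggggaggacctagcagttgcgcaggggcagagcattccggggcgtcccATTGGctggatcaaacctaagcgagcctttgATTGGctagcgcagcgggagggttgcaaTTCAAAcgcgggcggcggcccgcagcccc
Mki67: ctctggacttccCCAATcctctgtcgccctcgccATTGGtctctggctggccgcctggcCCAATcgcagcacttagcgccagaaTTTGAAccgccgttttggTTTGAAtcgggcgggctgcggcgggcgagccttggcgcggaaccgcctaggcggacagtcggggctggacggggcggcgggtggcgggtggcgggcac

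Mki67, which codes for the Ki-67 protein that coats mitotic chromosomes (ENSMUSG00000031004, chromosome 7, 135689784 to 135716361), was the leading gene of the rule, with 546 UMIs in 224 of the 352 cycling cells (63.6%). Its level, as counts per 1e6 summed UMIs (CPM), was 3964, 3634, 2282, 3069 and 2385 CPM in KO5_p2, KO5_p3, KO6_p1, KO6_p2 and KO6_p3. It was 2250, 5082, 2178, 3001 and 2853 CPM in WT3_p1, WT3_p2, WT3_p3, WT4_p2 and WT4_p3. The sets of both mice overlapped, and the highest value, in WT3_p2, lay above all Bbs8 KO sets and rested on 7 cells with Mki67. Top2a, the topoisomerase that disentangles replicated DNA (ENSMUSG00000020914, chromosome 11, 98992943 to 99024189), had 311 UMIs in 168 cells (47.7%). Its level was 2033, 1441, 1560, 1417 and 1470 CPM in the Bbs8 KO sets and 2813, 2103, 2011, 1827 and 1545 CPM in the Bbs8 WT sets, in the same order. The sets of both mice overlapped for Top2a, with 4 of 5 Bbs8 KO sets below 4 of 5 Bbs8 WT sets. Mki67 and Top2a were found together in 76 Bbs8 KO cells (27.0%) and 26 Bbs8 WT cells (37.1%), and neither was found in 52 and 10 cells. Without Mki67 the rule was still met by 237 cells, 183 of Bbs8 KO and 54 of Bbs8 WT.

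The other 8 genes were each found in 10.8% to 19.3% of the cycling cells. Tpx2, a spindle assembly factor (chromosome 2, 152847964 to 152895321), had 88 UMIs in 60 cells, and Nusap1, a microtubule-binding protein of the spindle (chromosome 2, 119618298 to 119651244), had 49 UMIs in 38 cells. Of the kinetochore genes, Cenpf (chromosome 1, 189640606 to 189688086) had 99 UMIs in 68 cells and Knl1 (chromosome 2, 119047119 to 119105501) had 67 UMIs in 49 cells. Ube2c, the ubiquitin-conjugating enzyme of the anaphase-promoting complex (chromosome 2, 164769898 to 164778822), had 55 UMIs in 44 cells. The remaining 3 genes code for subunits of the chromosomal passenger complex, which corrects chromosome attachment: Cdca8 (chromosome 4, 124918465 to 124939311) had 74 UMIs in 53 cells, Birc5 (chromosome 11, 117849251 to 117855743) 78 UMIs in 58 cells, and Incenp (chromosome 19, 9872296 to 9899551) 93 UMIs in 66 cells. Incenp was the gene of the rule most often seen elsewhere, with 55.4% of its UMIs in cycling cells, against 78.1% for Mki67. In all, 1460 of 2009 rule UMIs (72.7%) lay in the cycling cells. Cdca8 was at 288 CPM (208 to 390) in Bbs8 KO versus 752 CPM (515 to 1062) in Bbs8 WT cycling cells, and Birc5 at 336 CPM (249 to 445) and 682 CPM (457 to 979). As levels of genes the cells were selected on, these are not read as a difference between the mice.

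**Figure D1:**
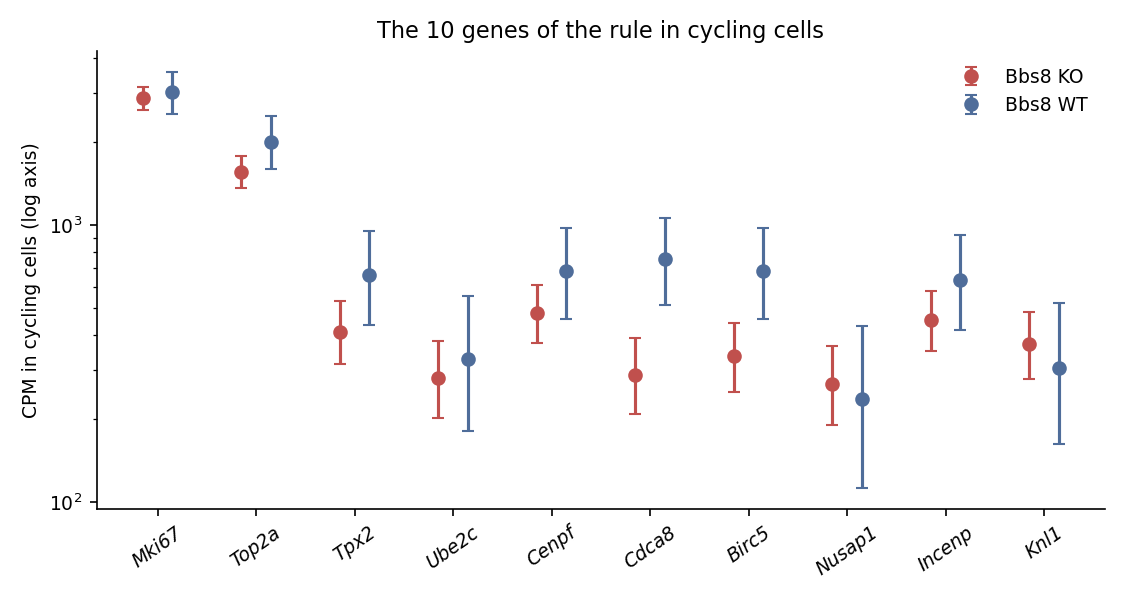
The level of each of the 10 rule genes in cycling cells (CPM on a log axis) of Bbs8 KO (red) and Bbs8 WT (blue), where points are summed UMIs and bars exact 95% Poisson intervals. Mki67 and Top2a lie above 1500 CPM in both mice and the other 8 genes below 800 CPM.

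A sum of exactly 2 rule UMIs, the least that met the rule, was found in 130 Bbs8 KO and 18 Bbs8 WT cells, and a sum of 3 or more in 152 and 52 cells, of which 29 and 18 had 8 or more. Just outside, 468 Bbs8 KO and 81 Bbs8 WT cells had a sum of 1, with a median of 287.5 and 259 UMIs per cell, against 319 and 426 UMIs in cells with a sum of 2. UMIs of at least 2 different rule genes were found in 179 Bbs8 KO and 55 Bbs8 WT cycling cells. The highest sum, 28 rule UMIs, was reached by a KO5_p2 cell with a myeloid call and 9 of the 10 genes among 1506 UMIs, and by a WT3_p2 cell with a lymphoid call and 8 of the 10 genes among 878 UMIs. In the latter, Mki67 alone gave 13 UMIs.

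The share of cycling cells was 3.14% (2.79 to 3.52) in Bbs8 KO versus 3.63% (2.84 to 4.56) in Bbs8 WT. The difference was -0.49 percentage points (-1.48 to 0.35), an interval that includes 0. It moved with the choice of cells: under a rule of at least 1 UMI it was 0.52 points, with the direction turned, and among cells with at least 200 genes it was -2.28 points. The share was 2.88, 2.39, 3.29, 2.89 and 4.28% in KO5_p2, KO5_p3, KO6_p1, KO6_p2 and KO6_p3, and 4.27, 3.61, 4.59, 3.13 and 3.69% in WT3_p1, WT3_p2, WT3_p3, WT4_p2 and WT4_p3. The highest Bbs8 KO set, KO6_p3, exceeded 4 of 5 Bbs8 WT sets, and the Bbs8 WT sets held only 9 to 24 cycling cells each.

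**Figure D2:**
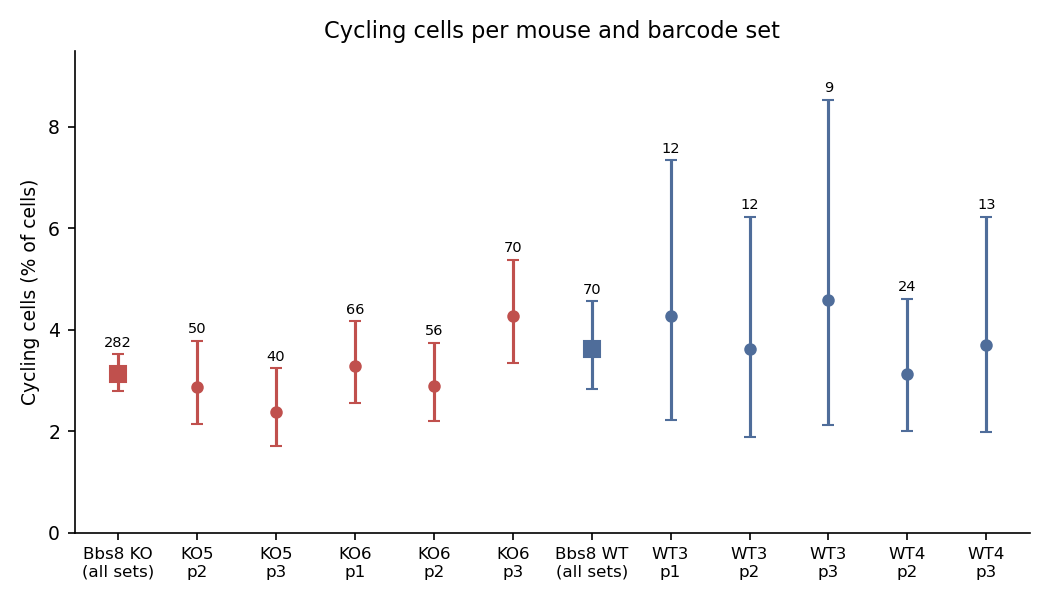
The share of cycling cells (% of cells) in each mouse (squares) and in each of its 5 barcode sets (circles), with exact 95% intervals and the number of cycling cells above each bar. Bbs8 KO sets lie between 2.39 and 4.28% and Bbs8 WT sets between 3.13 and 4.59%, with overlapping bars.

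Cycling cells were deeper than the others, with a median of 379.5 UMIs and 246.5 genes in Bbs8 KO versus 503.5 UMIs and 305 genes in Bbs8 WT, against 249 UMIs and 160 genes, and 274 UMIs and 157 genes, in other cells. A deep cell reaches 2 rule UMIs more easily, and a dividing cell holds more RNA, and these cannot be told apart here. The cycling share rose from 1.15% of Bbs8 KO cells with 117 to 181 UMIs to 6.33% of those with 456 to 2791 UMIs. In Bbs8 WT it was 2.16% and 9.64% in the same bins. After each cell was thinned at random to 200 UMIs, leaving out 2719 Bbs8 KO and 385 Bbs8 WT shallower cells, 1.96% (1.63 to 2.34) of Bbs8 KO and 2.20% (1.53 to 3.06) of Bbs8 WT cells met the rule, against 3.96% and 4.15% of the same cells before thinning. The median mitochondrial share of cycling cells, 7.26% in Bbs8 KO versus 8.46% in Bbs8 WT, stood beside 8.29% and 8.51% in other cells, and in WT3_p1 and WT3_p2 it was above that of other cells (10.8 against 8.92% and 8.16 against 6.38%).

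Lineage was read from 9 genes outside the rule: Dcn and Col3a1, matrix genes of stromal cells, Cd79b, Trac and Trbc2, antigen receptor genes of lymphocytes, C1qa and Lyz2, macrophage and monocyte genes, and Kdr and Cdh5, endothelial genes. A cell took the lineage with the most UMIs. In Bbs8 KO, 132 of 282 cycling cells were called stromal (46.8%, 40.9 to 52.8), 49 myeloid (17.4%), 41 lymphoid (14.5%) and 4 endothelial. In Bbs8 WT, 29 of 70 were called myeloid (41.4%, 29.8 to 53.8), 12 stromal (17.1%, 9.18 to 28.0), 8 lymphoid (11.4%) and 1 endothelial. A tie was found in 23 and 4 cells, and no lineage UMI in 33 and 16 cells. The stromal share of cycling cells ran from 39.3 to 58.0% over the Bbs8 KO sets and from 7.69 to 29.2% over the Bbs8 WT sets, and the myeloid share from 13.6 to 21.4% and from 25 to 58.3%. Neither pair of ranges overlapped. Of the 12 stromal-called Bbs8 WT cells, 7 came from WT4_p2, without which the stromal share was 10.9%. The other cells of the same mice were 47.9% stromal and 9.09% myeloid in Bbs8 KO, and 61.7% stromal and 13.6% myeloid in Bbs8 WT, so the stromal share of cycling cells was near that of the other cells in Bbs8 KO and well below it in Bbs8 WT.

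Read within a lineage, 3.07% (2.57 to 3.63) of stromal-called Bbs8 KO cells and 1.04% (0.54 to 1.80) of stromal-called Bbs8 WT cells cycled. The difference was 2.03 percentage points (1.13 to 2.74). The stromal values were 3.34, 1.99, 3.67, 2.43 and 3.99% in KO5_p2, KO5_p3, KO6_p1, KO6_p2 and KO6_p3, and 0.578, 0.532, 1.74, 1.50 and 0.465% in WT3_p1, WT3_p2, WT3_p3, WT4_p2 and WT4_p3. All Bbs8 KO sets lay above all Bbs8 WT sets, but these Bbs8 WT values rested on 1, 1, 2, 7 and 1 cycling cells. The nearest pair was WT3_p3 (2 of 115 cells) and KO5_p3 (17 of 856 cells). Among myeloid-called cells the order was turned: 5.83% (4.35 to 7.64) of Bbs8 KO and 10.3% (7.02 to 14.5) of Bbs8 WT cells cycled, a difference of -4.49 percentage points (-8.83 to -0.96). The myeloid values were 6.77, 5.34, 3.88, 5.03 and 9.09% in the Bbs8 KO sets and 11.9, 11.5, 12.5, 6.12 and 14.6% in the Bbs8 WT sets, in the same order, so WT4_p2 lay within the Bbs8 KO range. Among lymphoid-called cells, 2.92% (2.10 to 3.94) of Bbs8 KO and 9.30% (4.10 to 17.5) of Bbs8 WT cells cycled, a difference of -6.39 points (-14.4 to -1.76) that rested on 8 Bbs8 WT cells among 86. Of endothelial-called cells, 4 of 254 in Bbs8 KO (1.57%, 0.43 to 3.98) and 1 of 54 in Bbs8 WT (1.85%, 0.0469 to 9.89) cycled, which was too few to compare.

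**Figure D3:**
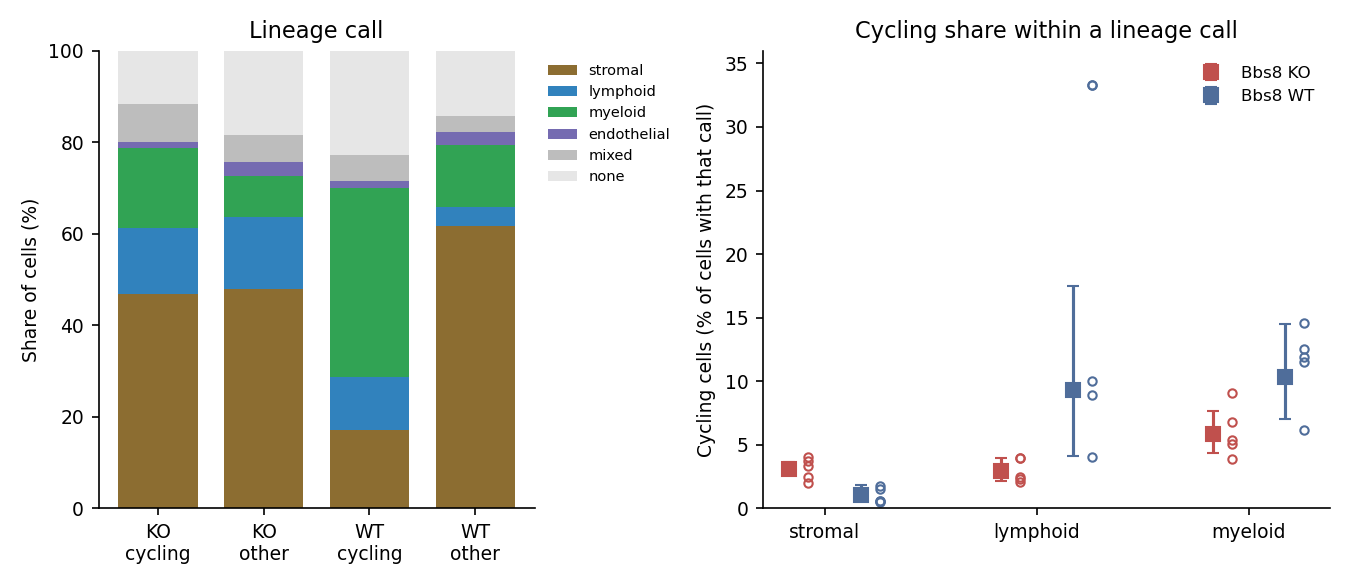
Left, the lineage call of cycling and of other cells in each mouse (% of cells), and right, the share of cells with a given call that cycled, for each mouse (squares with exact 95% intervals) and each barcode set (circles). Stromal calls make up 46.8% of Bbs8 KO and 17.1% of Bbs8 WT cycling cells, and the cycling share is higher in Bbs8 KO for stromal calls and in Bbs8 WT for lymphoid and myeloid calls, where the points at 33.3% are 2 sets with 3 lymphoid cells each.

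The order of the mice within the stromal call was the same at equal depth and with firmer calls, and its size depended on the threshold. Among cells thinned to 200 UMIs, 1.97% of stromal-called Bbs8 KO and 0.731% of Bbs8 WT cells met the rule, 3.46% and 6.79% of myeloid-called cells, and 1.66% and 7.04% of lymphoid-called cells. Of cells with at least 5 stromal UMIs, 74 of 2125 Bbs8 KO cells cycled (3.48%, 2.74 to 4.35) and 9 of 829 Bbs8 WT cells (1.09%, 0.50 to 2.05). With no UMI of another lineage besides, these were 47 of 1305 (3.60%) and 4 of 663 (0.603%). With at least 3 rule UMIs, 1.25% (0.944 to 1.63) of stromal-called Bbs8 KO and 0.604% (0.243 to 1.24) of Bbs8 WT cells cycled, and these intervals overlapped. The stromal share also depended on how many rule genes a cycling cell showed: in Bbs8 KO it was 61.2% of 103 cells with 1 rule gene, 50.5% of 99 with 2, 27.8% of 36 with 3, 35% of 20 with 4 and 8.33% of 24 with 5 or more. In Bbs8 WT it was 26.7% of 15, 14.3% of 21, 30.8% of 13, 0% of 9 and 8.33% of 12 cells. The cells with most rule genes were called stromal least often in Bbs8 KO, and the Bbs8 WT groups were too small to order.

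Stromal UMIs were also found in cells with UMIs of other lineages. Of cells with at least 2 myeloid UMIs, 53.2% in Bbs8 KO (median 338.5 UMIs per cell) and 35.1% in Bbs8 WT (median 299) had a stromal UMI, and of cells with at least 2 lymphoid UMIs, 37.3% (median 362) and 47.5% (median 322). Of cycling cells, 61.0% in Bbs8 KO versus 28.6% in Bbs8 WT had a stromal UMI. In Bbs8 WT that share lay below both of these levels. A single UMI decided the stromal call of 18 of the 132 Bbs8 KO and 2 of the 12 Bbs8 WT cells. UMIs of at least 2 lineages were found in 35.1% of Bbs8 KO and 21.4% of Bbs8 WT cycling cells, against 27.6% and 19.2% of other cells. Doublets were kept and no doublet caller was run, and the part of free RNA and doublets in these shares was not tested. Of 36 barcodes found in more than 1 set, holding 103 cells, 7 cells cycled.

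In the stromal-called cycling cells of Bbs8 KO, 7 of 8 stromal genes outside the call were below their level in other stromal-called cells, 5 of them (Col1a1, Col1a2, Lum, Gsn and Sparc) with the counting interval, and 0 intervals lay above it. Over all 2065 genes with at least 10 observed plus expected UMIs in this comparison, the interval lay below for 2.71% and above for 9.59%. Both genes that make the call were lower too. The highest Bbs8 KO set was nevertheless above the level of other cells for 5 of these 7 genes (Col1a2, Lum, Gsn, Sparc and Col3a1). Col3a1, a fibrillar collagen, was at 18081 CPM (17012 to 19200, sets 14950 to 21809) in these cells and 21015 CPM in other stromal-called Bbs8 KO cells, and Dcn, a small proteoglycan that binds collagen, at 2442 CPM (2060 to 2876, sets 1807 to 3665) and 3740 CPM. Lum, another proteoglycan of collagen fibrils, had 61 UMIs in 32 of these cells (1035 CPM, 791 to 1329, against 1331 CPM). Of genes of the APC subpopulations with as many UMIs, the interval lay below the level of other cells for 0 of 6 genes of P1, 1 of 5 of P2 (Fabp4) and 2 of 3 of P3 (Mmp3 and Bgn), and above it for 0. Of the 7 genes listed for each, 3 of P1 and 2 of P2 had the higher level in cycling cells. Pi16, a P1 progenitor marker, was at 492 CPM (329 to 706) against 608 CPM, Col15a1, a collagen listed for P2 cells, at 611 CPM (428 to 845) against 488 CPM, Fabp4, a lipid-binding protein of the same list, at 1103 CPM (851 to 1405) against 1450 CPM, and Mmp3, a protease listed for P3 cells, at 254 CPM (142 to 420) against 440 CPM. Transcripts of all 3 lists were present among the cycling cells. Stromal-called cycling cells of both mice also held genes of immune cells. Of the 132 cells of Bbs8 KO, 42 held H2-Ab1 (MHC class II), 23 Retnla, a macrophage gene, and 18 Lyz2, with Retnla at 797 CPM against 867 CPM in other stromal-called cells. All 12 cells of Bbs8 WT held Col3a1 (141 UMIs), 9 held Col1a2 (84 UMIs) and 8 held Dcn (33 UMIs). Each of these 3 genes was below its level in other stromal-called Bbs8 WT cells. Of the stromal genes outside the call only Mgp was above that level (893 against 254 CPM). The 12 cells had 0 UMIs of Lum, which allows up to 383 CPM, against 1215 CPM in other stromal-called cells. Retnla had 42 UMIs in 3 of these cells (5358 CPM against 668 CPM), C1qa 8 UMIs in 2 cells, and Ighm, the IgM heavy chain, 11 UMIs in 4 cells (1403 CPM against 175 CPM).

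Among myeloid-called cycling cells, the level of 7 of 12 macrophage and monocyte genes was higher in Bbs8 KO and that of 5 in Bbs8 WT, and the counting intervals of the mice were apart for Mrc1 (higher in Bbs8 KO) and Lyz1 (higher in Bbs8 WT), or 2 of the 10 with at least 10 UMIs. Over all 859 genes with as many UMIs in these cells the intervals were apart for 2.56% with Bbs8 KO higher and 4.54% with Bbs8 WT higher. C1qa, a complement subunit that helped make the call, was at 1991 CPM in Bbs8 KO versus 2181 CPM in Bbs8 WT, and Ccr2, a chemokine receptor of monocytes, at 1060 and 1224 CPM. Lyz1, a lysozyme, was at 6863 CPM (5730 to 8154) in Bbs8 WT and 1188 CPM (837 to 1638) in Bbs8 KO myeloid-called cycling cells, although other myeloid-called cells had 2267 and 2286 CPM. It was found in 12 of 29 and 13 of 49 cells, and the sets ran from 4045 to 13102 CPM in Bbs8 WT and from 847 to 2060 CPM in Bbs8 KO, without overlap. Lyz1 lies beside the near-identical Lyz2, so reads could be split between them. Outside this list, Retnla was at 18992 CPM (17073 to 21068) in Bbs8 WT and 4592 CPM (3870 to 5409) in Bbs8 KO, against 12800 and 6965 CPM in other myeloid-called cells. Fn1, fibronectin, was at 3192 CPM (2436 to 4109) and 514 CPM (294 to 834), against 1533 and 1352 CPM. Of the receptors of resident macrophages, Csf1r, the M-CSF receptor, was at 798 CPM (447 to 1316) in Bbs8 WT and 1638 CPM (1219 to 2153) in Bbs8 KO, and Mrc1, the mannose receptor, at 1436 CPM (947 to 2090) and 2762 CPM (2209 to 3411). The sets of the mice overlapped for Retnla, Fn1, Csf1r and Mrc1, for example from 6474 to 30424 CPM in Bbs8 WT and from 1810 to 7315 CPM in Bbs8 KO for Retnla. In other myeloid-called cells Csf1r was at 2044 and 1580 CPM and Mrc1 at 2600 and 2433 CPM.

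In the lymphoid-called cycling cells of Bbs8 KO, all 9 genes of the B cell list were below their level in other lymphoid-called cells, 8 of them with the counting interval. Over all 758 genes with at least 10 observed plus expected UMIs in this comparison the interval lay below for 6.07% and above for 19.1%, and all 8 B cell genes that had as many UMIs lay below. Of 10 T cell genes, 4 were higher and 6 lower, with the interval of Trbc1 above and that of Il7r, the IL-7 receptor, below the level of other cells (118 CPM, 24.3 to 345, against 576 CPM). Trbc2, which helped make the call, was at 2713 CPM (2111 to 3433) against 2606 CPM and Trbc1 at 1219 CPM (828 to 1730) against 594 CPM. Cd79b, a subunit of the B cell receptor that also helped make the call, was at 511 CPM (272 to 874) against 1798 CPM, and Igkc, the kappa light chain, at 275 CPM (111 to 567) against 1983 CPM. In the 8 lymphoid-called cycling cells of Bbs8 WT, Ighm had 46 UMIs in 5 cells, or 7507 CPM (5496 to 10013), against 790 CPM in other lymphoid-called cells, and Cd79b was at 1795 CPM (896 to 3212) against 1580 CPM.

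Cycling cells without a lineage UMI were not empty of other transcripts. Of the 33 such cells of Bbs8 KO, 14 held Ptprc, which codes for the leukocyte antigen CD45 (20 UMIs, 1292 CPM, 789 to 1996), and 13 held a UMI of 8 further stromal genes. Of the 16 such cells of Bbs8 WT, 4 held Ptprc (7 UMIs) and 4 a further stromal gene. A single Bbs8 KO cell of this kind held 19 UMIs of mammary and skin epithelium genes.

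Genes outside the rule were then compared between cycling and other cells. The expected level of a gene was that of the other cells of the same mouse, weighted to the lineages of the cycling cells, and a gene was called at a log2 ratio (pseudocount of 20 CPM) of at least 1 or at most -1, given at least 10 observed plus expected UMIs. Of 6151 genes with enough UMIs, 217 were called higher (3.53%) and 79 lower (1.28%), with a median log2 ratio of 0.07. Of 183 cell-cycle genes outside the rule, 113 had enough UMIs, and 90 of these were called higher and 0 lower. Genes that are low in other cells passed the UMI minimum through the cycling cells and had to be higher, so the count is a description of those 113 genes. Without the minimum, 108 of 182 were called higher. Summed over all members, with no minimum, the cell-cycle lists were 3.76-fold above the expected level, 3.69-fold in Bbs8 KO versus 3.99-fold in Bbs8 WT, and 3.15- to 4.25-fold over the Bbs8 KO sets and 4.16- to 5.50-fold over the Bbs8 WT sets when each set was compared with its own other cells, unweighted.

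Mitotic cyclins, kinases and their regulators were 5.78-fold above the expected level as a sum, and 6 of 7 genes with enough UMIs were called higher. Ccnb2, cyclin B2, had 27 UMIs in Bbs8 KO versus 2 in Bbs8 WT cycling cells (log2 ratio 2.63), and Ccna2, cyclin A2, 22 and 3 UMIs (2.45). Plk1, the polo-like kinase that drives entry into mitosis, had 14 and 1 UMIs (2.10), and Cks1b, a subunit of cyclin-dependent kinases, 15 and 6 UMIs (2.08). Arpp19, a phosphatase inhibitor of mitotic entry, was the member not called (0.44), with 9 UMIs in Bbs8 KO versus 16 in Bbs8 WT. Its log2 ratio over other cells was -0.46 in Bbs8 KO versus 1.81 in Bbs8 WT.

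Kinesins, spindle and cytokinesis genes were 6.04-fold above the expected level, and 16 of 18 were called higher. Prc1, which bundles the microtubules of the central spindle (ENSMUSG00000038943, chromosome 7, 80294450 to 80316259), had the highest log2 ratio of all genes outside the rule over both mice together, 3.12. In Bbs8 KO its ratio, 2.87, was below the 2.91 of Aspm, and in Bbs8 WT it was 3.94 on 16 UMIs. It was at 240 CPM against an expected 15.6 in Bbs8 KO versus 376 CPM against 5.75 in Bbs8 WT, where it was seen in 3 of 5 sets. Aspm, a spindle pole protein (chromosome 1, 139454772 to 139494091), followed at 2.91, Kif11, the motor that pushes spindle poles apart (chromosome 19, 37376403 to 37421859), at 2.84, Anln, which organises the contractile ring (chromosome 9, 22332012 to 22389188), at 2.77, and Kif23, a motor of the central spindle (chromosome 9, 61915905 to 61946774), at 2.60. All 5 had log2 ratios of at least 2.49 in each mouse. The genes with the highest ratios were named only if the sign was the same in both mice, so the shared sign is no result. Numa1, which anchors spindle microtubules and is also a nuclear protein of resting cells, was not called (0.10, 32 and 7 UMIs).

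Kinetochore, checkpoint and anaphase genes were 6.85-fold above the expected level, and 16 of 18 were called higher. Of the 18, 9 were above the expected level in both mice, and Bbs8 WT gave 62 of the 420 UMIs of the list. Its sum was the highest of the lists in Bbs8 KO (7.32-fold), whereas in Bbs8 WT (5.01-fold) the mitotic cyclins (7.02-fold) and kinesins (6.55-fold) stood above it. Cenpe, a kinesin of the kinetochore, had 55 UMIs in 46 cells (log2 ratio 2.79), Cdca3 28 UMIs in 21 cells (2.54), Spc24, a subunit of the Ndc80 complex, 29 UMIs in 24 cells (2.51), Ndc80 itself 26 UMIs in 24 cells (2.28) and Cenpa, the histone variant of centromeres, 31 UMIs in 27 cells (2.00).

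Condensin, cohesin and chromatin genes were 3.08-fold above the expected level, and 21 of 25 were called higher. Smc2 and Smc4, the paired subunits of condensin, had log2 ratios of 2.45 and 1.39. Smc2 was at 357 CPM in Bbs8 KO versus 329 CPM in Bbs8 WT cycling cells, whereas Smc4 was at 529 and 1129 CPM, and its sets ran from 318 to 771 CPM and from 832 to 2011 CPM without overlap. Rad21, a cohesin subunit (1.67), Tmpo, a protein of the nuclear envelope (1.81), and the chromatin proteins Nucks1 (1.46) and Dek (1.26) were also called higher.

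DNA replication and nucleotide supply genes were 3.60-fold above the expected level, and 29 of 35 were called higher. Rrm1, a subunit of ribonucleotide reductase, which makes deoxynucleotides, had 58 UMIs in 47 cells (log2 ratio 2.26). The helicase subunits Mcm5, Mcm6 and Mcm3 were at 2.05, 1.83 and 1.81, and Dnmt1, which copies DNA methylation, at 1.62. Of 6 histone genes with enough UMIs, Hist1h1e (1.91) and Hist1h1d (1.55) were called higher, and Hist1h1b (0.91), H1f0 (0.49) and Hist1h1c (0.34) were not. H1f0 is a linker histone made outside S phase, and most replication-dependent histone transcripts lack the poly(A) tail by which these libraries capture RNA. The sum of the histone genes was 2.47-fold above the expected level.

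A mitotic and a replication transcript, outside the rule, were found together in more cycling than other cells. At least 1 UMI of the mitotic lists (cyclins, kinesins and kinetochore) was found in 73.4% of Bbs8 KO and 81.4% of Bbs8 WT cycling cells, against 24.1% and 19.3% of other cells. For the replication list these shares were 63.8% and 67.1%, against 29.5% and 22.8%. Both were found in 146 Bbs8 KO and 43 Bbs8 WT cycling cells, and neither in 41 (14.5%) and 9 (12.9%). Among other cells, 760 of 8703 in Bbs8 KO and 107 of 1859 in Bbs8 WT held both. In cells thinned to 200 UMIs, both were found in 30.2% of Bbs8 KO and 35.9% of Bbs8 WT cycling cells, against 4.22% and 2.91% of other cells. The cells were not divided into phases.

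**Figure D4:**
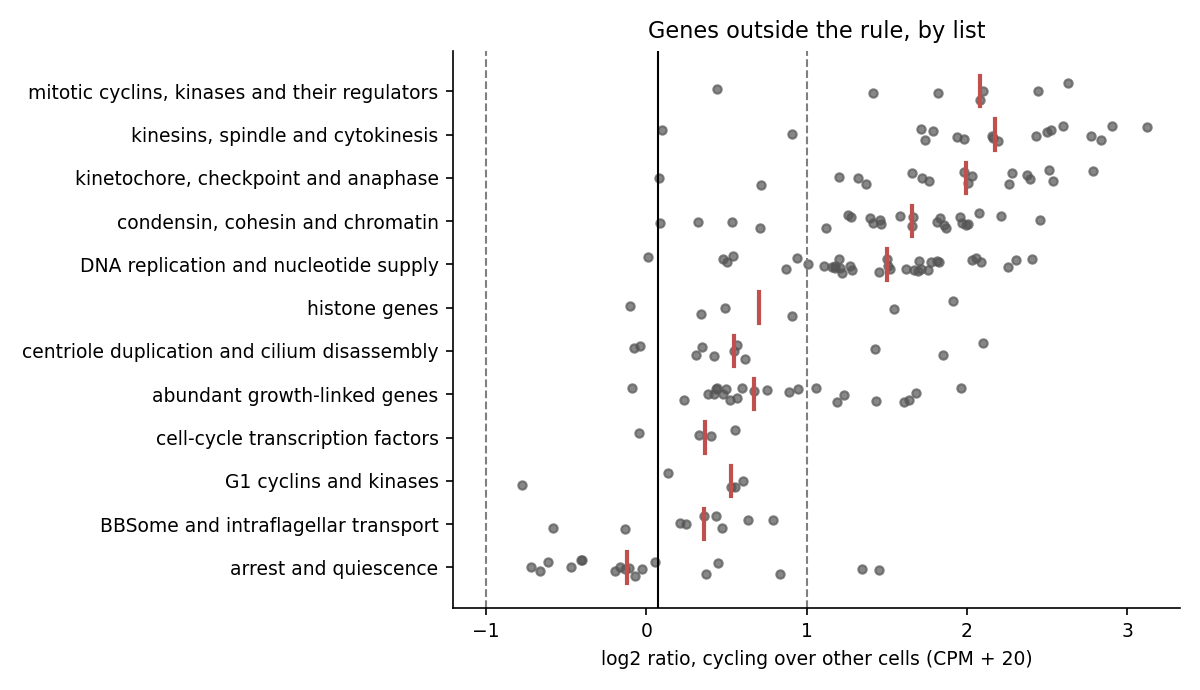
The log2 ratio of cycling over other cells (CPM + 20) of each gene with at least 10 observed plus expected UMIs, by list, with each list's median in red, the median of all 6151 genes as a black line and the thresholds of 1 and -1 dashed. Mitotic, chromatin and replication lists have medians between 1.50 and 2.18, whereas G1, arrest and cilium lists have medians between -0.12 and 0.54.

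For genes that act before replication or hold cells at rest, few calls are to be read against the 3.53% higher and 1.28% lower of all genes, at which lists this short would hold few or none. Of 5 G1 cyclins and kinases with enough UMIs, 0 were called. Ccnd2, cyclin D2, was at -0.77, Ccnd1, cyclin D1, at 0.13, and Cdk4, their kinase, at 0.60, and the list sum was 0.97-fold of the expected level. Of 4 transcription factor genes of the cell cycle, such as Rbl2 (0.41) and Rb1 (0.33), 0 were called. Of 18 arrest and quiescence genes, 2 were called higher, both inhibitors of Cdk4 and Cdk6 of the INK4 family: Cdkn2c (1.45), named after its value was seen, and Cdkn2d (1.35), the latter with 12 UMIs in Bbs8 KO versus 7 in Bbs8 WT. Gas6, a growth arrest-specific ligand (-0.72), Txnip, which binds thioredoxin (-0.41), and Cdkn1b, the inhibitor p27 (0.06), were not called, and the list sum was 0.90-fold of the expected level. Of 23 abundant genes linked to growth, 8 were called higher. Tubb5, a beta tubulin, was found in 153 cycling cells, at 1758 CPM against an expected 637 CPM in Bbs8 KO versus 2093 CPM against 418 CPM in Bbs8 WT (log2 ratio 1.61).

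Of the genes of the centrosome and the cilium, 3 were called. Among 11 genes of centriole duplication and cilium disassembly with enough UMIs, Plk1 (2.10), Plk4, the kinase that starts centriole duplication (1.85), and Cdk5rap2, a centrosome scaffold (1.43), were called higher, and Kif2a (0.54) and Pcnt (0.35) were not. Of 9 BBSome and intraflagellar transport genes, 0 were called, a count that the shares over all genes would also give. Ift80 (0.79), Ift52 (0.64) and Ift20 (-0.13), parts of the trains that carry cargo along the cilium, were among them, and the sum of this list was at 673 CPM against an expected 578 CPM in Bbs8 KO versus 705 CPM against 578 CPM in Bbs8 WT. Bbs8 itself is listed as Ttc8 (chromosome 12, 98920574 to 98983238). It had 0 UMIs in the cycling cells of both mice, which allows up to 20.6 CPM in Bbs8 KO versus 70.5 CPM in Bbs8 WT, so its loss could not be read in these cells.

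In the comparison weighted by lineage, over both mice together, cell type genes were called in the lower direction only. Sums could differ within each mouse: the B cell list was at 0.549-fold of the expected level in Bbs8 KO and at 1.50-fold in Bbs8 WT. The lists of stromal, immune, vascular and epithelial genes held 87 genes with enough UMIs, among them the 9 that made the lineage calls. Weighting by these calls draws the 9 towards the expected level. Of the 87, 0 were called higher, against 3.53% of all genes. Called lower were 6 (6.90%, against 1.28% of all genes), among them Bgn, a small proteoglycan (-1.18, 9 cells), Flt1, a VEGF receptor (-1.13, 11 cells), Myh11, a smooth muscle myosin (-1.42, 3 cells), and Ighd, the IgD heavy chain of resting B cells (-1.46, 26 UMIs in Bbs8 KO versus 0 in Bbs8 WT), the last named after its value was seen. Of the lowest genes with the same sign in both mice, Tulp4, Elk3, Iglc1 and Vps37a were each seen in 1 cycling cell. Cd209f, a lectin of resident macrophages, was the best covered of them, at 151 CPM against an expected 348 CPM in Bbs8 KO versus 47.0 CPM against 634 CPM in Bbs8 WT (log2 ratio -1.55).

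The cell-cycle lists that the rule did not use rose with the sum of rule UMIs. Over cells of both mice, they held 4522 CPM (4451 to 4593) in 10013 cells without a rule UMI, 7672 CPM (7300 to 8058) in 549 cells with 1, 12027 CPM (11191 to 12909) in 148 cells with 2, and 21388 CPM (20583 to 22217) in 204 cells with 3 or more. In cells thinned to 200 UMIs, 54.8, 69.2, 73.2 and 88.4% had a UMI of these lists. The arrest and quiescence list stayed between 1656 and 1906 CPM over these groups. The steps were seen in each main lineage. In stromal-called Bbs8 KO cells the cell-cycle lists held 4371, 7016, 10032 and 15836 CPM, in myeloid-called Bbs8 KO cells 4110, 7148, 12560 and 20986 CPM, and in lymphoid-called Bbs8 KO cells 5436, 10746, 16033 and 29689 CPM. At 3 or more rule UMIs, stromal-called cells had the lowest level of the 3 lineages in each mouse, 15836 CPM (14404 to 17370) in 54 Bbs8 KO cells and 15472 CPM (12015 to 19615) in 7 Bbs8 WT cells. In Bbs8 WT this interval overlapped that of the myeloid-called cells, 19025 CPM (16956 to 21276). In all, cycling cells exceeded other cells with the same call 2.81-fold (2.60 to 3.03) for stromal, 4.58-fold (4.17 to 5.04) for myeloid and 4.38-fold (4.01 to 4.77) for lymphoid calls in Bbs8 KO, and 3.60-fold (2.88 to 4.45), 4.38-fold (3.77 to 5.07) and 3.18-fold (2.56 to 3.94) in Bbs8 WT.

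**Figure D5:**
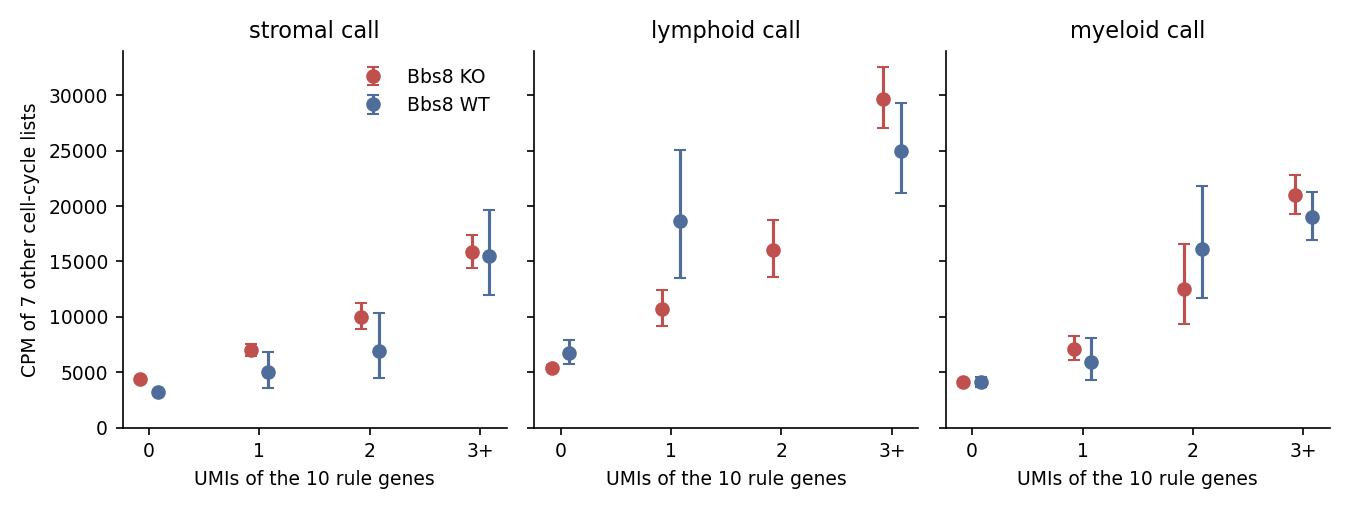
The summed level of the 7 cell-cycle lists outside the rule (CPM) in cells with 0, 1, 2 and 3 or more rule UMIs, for stromal, lymphoid and myeloid calls in Bbs8 KO (red) and Bbs8 WT (blue), with exact 95% Poisson intervals. The level rises in all panels, to 15836 CPM in stromal-called and 29689 CPM in lymphoid-called Bbs8 KO cells, and no lymphoid-called Bbs8 WT cell had exactly 2 rule UMIs.

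Cycling cells of Bbs8 KO were last compared with those of Bbs8 WT, over 1797 genes with at least 20 UMIs in cycling cells. Of these, 259 had a log2 ratio of at least 1 (14.4%) and 161 of at most -1 (8.96%), with a median of -0.04. The cell-cycle lists as a whole were at 17919 CPM in Bbs8 KO versus 19234 CPM in Bbs8 WT (log2 ratio -0.10, -0.22 to 0.01). Kinetochore, checkpoint and anaphase genes were higher in Bbs8 KO, at 2458 against 1458 CPM (0.75, 0.36 to 1.17), whereas in other cells, weighted to the lineages of the cycling cells, they were at 336 and 291 CPM. Condensin, cohesin and chromatin genes were lower in Bbs8 KO, at 5746 against 8089 CPM (-0.49, -0.68 to -0.31), against 2008 and 2129 CPM in other cells. Both lists kept these directions within the stromal, myeloid and lymphoid calls, for example 2633 (2094 to 3268) against 1277 CPM (818 to 1900) of kinetochore genes in myeloid-called and 3986 (3493 to 4530) against 6762 CPM (5065 to 8845) of chromatin genes in stromal-called cells. The intervals of both lists overlapped in lymphoid-called cells, as did those of chromatin genes in myeloid-called cells (5294 to 7067 and 6803 to 9422 CPM). The kinetochore genes had only 3 UMIs in stromal-called Bbs8 WT cells. In cells with a tie they were at 2399 against 2611 CPM, the latter on 6 UMIs, and in cells without a lineage UMI chromatin genes were at 7817 against 6983 CPM. For the mitotic cyclins (0.06, -0.42 to 0.56), the kinesins (-0.26, -0.54 to 0.03) and the replication genes (0.21, -0.02 to 0.46) the interval included 0, as it did for the cell-cycle transcription factors (0.60, -0.26 to 1.66). Histone genes were at 460 against 776 CPM (-0.73, -1.38 to -0.11), but within calls the order varied: they were at 441 against 255 CPM in stromal-called, 706 against 479 CPM in myeloid-called and 78.6 against 1795 CPM in lymphoid-called cells, the last on 2 and 11 UMIs. The abundant genes linked to growth, outside these lists, were at 10229 against 14931 CPM (-0.54, -0.68 to -0.41). In stromal-called cells they were at 7802 against 7910 CPM, with overlapping intervals, and in myeloid-called cells at 10436 against 14843 CPM.

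Among the single genes with the largest ratios were genes of lineages that took different shares of the cycling cells in each mouse, as given above. How much of a ratio over all cycling cells came with these shares was not tested, and within 1 call the values above had the same direction for Lyz1 and Retnla (myeloid) and for Lum (stromal, 12 Bbs8 WT cells). Lum had 72 UMIs in Bbs8 KO (494 CPM) and 0 in Bbs8 WT, where up to 70.5 CPM is allowed, and Ly6c1, Cald1 and Ptprb, genes of stromal or vascular cells, had 47, 39 and 37 UMIs against 0. In other cells these 4 genes were present in both mice, for example Ptprb at 212 CPM in Bbs8 KO versus 253 CPM in Bbs8 WT. Retnla was at 1490 CPM in Bbs8 KO versus 9429 CPM in Bbs8 WT cycling cells (log2 ratio -2.65), Lyz1 at 378 and 3033 CPM (-2.94), and Ear2, a ribonuclease of myeloid cells, at 48.1 and 400 CPM (-2.62), and for each of these 3 genes all Bbs8 KO sets lay below all Bbs8 WT sets. Arpp19, at 61.8 and 376 CPM (-2.28), was the only cell-cycle gene among the 5 lowest, and it was at 92.5 and 93.2 CPM in other cells. The most extreme pair, Rpsa-ps10 (108 UMIs against 0) and Rpl34 (1 UMI against 23), is a pseudogene and a ribosomal protein gene with near-identical copies, so their values are uncertain. Other cells showed the same contrast, with Rpsa-ps10 at 680 and 24.3 CPM and Rpl34 at 11.0 and 349 CPM.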

How the data were processed

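Seq-Well S3 libraries of the iWAT SVF were measured for 1 Bbs8 KO and 1 Bbs8 WT mouse, so no test between the mice was run. The deposited table gave UMI counts of 14623 genes in 10914 cells. Per the study's methods, the authors demultiplexed reads with bcl2fastq 2.20, counted UMIs on mm10 with Drop-seq tools and STAR, removed cells by gene number and mitochondrial share, and evened out depth with downsampleBatches. Whether the deposited counts went through the depth step is not given in the sources used here. All cells were kept (101 to 994 genes each), no doublet caller was run, and 0 columns were left unmapped. Column names gave the genotype and the barcode set. Sets could not be matched to single labelled samples.

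The cycling cells, the gene lists and the alternatives were chosen with earlier results of these data known. Lineage calls, summed CPM and log2 ratios (pseudocount of 20 CPM) were computed with numpy 2.4.6 and pandas 2.3.3, TMM factors with edgeR 4.0.16 (R 4.3.3) and plots with matplotlib 3.10.9. Shares have Clopper-Pearson, sums Poisson, differences of shares Newcombe and ratios exact conditional 95% intervals (scipy 1.17.1), and a count of 0 allows up to 3 counts. Named were the 10 rule genes, the lineage genes, Ttc8, up to 5 genes with most UMIs per list, the 12 highest and 8 lowest ratios with the same sign in both mice, and the 5 highest and 5 lowest Bbs8 KO over Bbs8 WT ratios. A gene that this rule names is not reported here. The scripts were tested on simulated data. Gene positions are those of mm10 (GENCODE). Alternatives covered the rule (1 or 3 UMIs), lineage calls, pseudocounts, filters, references, scaling and leaving out each set.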

Additional observations from a re-analysis of the deposited data

Results flagged for a closer look

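In 54 groups of 5 barcode sets, without the genes of the rule, 1 value stood apart from the other 4 sets by Dixon's criterion, where chance gives about 1 in 20 groups, or 2.7 here. Kinetochore, checkpoint and anaphase genes were at 422 CPM in the cycling cells of WT3_p1 and at 1508 to 1928 CPM in the other Bbs8 WT sets.

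Of 123 genes and lists, 3 moved in opposite directions in every set of the 2 mice when cycling cells were compared with the other cells of their own set, without lineage weights. These differences were not tested, and 1 mouse per genotype was measured. For Cd74, the invariant chain of MHC class II, the log2 ratio was -0.39 in Bbs8 KO (sets -1.09 to -0.06) and 1.36 in Bbs8 WT (sets 0.62 to 2.07), a difference of -1.74. With the lineage weights it was -0.58 and 0.16. For Ighm it was -0.94 (sets -2.41 to -0.56) and 2.32 (sets 1.18 to 4.48), a difference of -3.26, and -0.96 and 1.76 with the weights. For the B cell list, which holds both genes, it was -0.78 (sets -1.20 to -0.57) and 1.60 (sets 1.07 to 2.60), a difference of -2.38, and its sum was 0.549-fold and 1.50-fold of the weighted expected level. Myeloid-called cells, which also express Cd74, made up 41.4% of Bbs8 WT and 17.4% of Bbs8 KO cycling cells, and the part of this in the Cd74 difference was not tested.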

How the results depend on the processing

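Over 56 results, 873 values were computed under alternatives, of which 76 moved beyond their counting interval or by over 1.5 times and 0 reversed a called value. Under a rule of at least 1 UMI the difference in cycling share was 0.52 percentage points, and with cells of at least 200 genes it was -2.28. The stromal share of Bbs8 KO cycling cells was 40.4% with calls from at least 2 UMIs, 31.9% with lineage UMIs scaled by their total and 35.5% under a rule of at least 3 UMIs, and the myeloid share was 24.1% when scaled and 24.3% under that rule. At 3 UMIs the stromal difference in cycling share was 0.651 percentage points, genes called lower in cycling cells were 138, genes higher in Bbs8 KO 129, and the Bbs8 KO over Bbs8 WT log2 ratio of the cell-cycle lists 0.0201. Leaving out single sets gave -0.170 to 0.0646 for this ratio, where the highest value was that without WT4_p2. Cell-cycle genes called higher were 37 at a pseudocount of 100 CPM, 34 of 46 with at least 30 UMIs and 30 of 36 in Bbs8 WT alone. Genes called higher and lower in cycling cells were 389 and 230 at a pseudocount of 5 CPM, 50 and 2 at 100 CPM and 77 and 13 with at least 30 UMIs, and 162 were lower with no filter and 151 without lineage weights. Genes higher and lower in Bbs8 KO were 88 and 72 at 100 CPM and 2743 and 982 with no filter. TMM scaling shifted log2 ratios of cycling over other cells by -0.08 and of Bbs8 KO over Bbs8 WT by -0.05. No paired analysis was possible because no result comes from a test and no barcode set carries the number of a labelled replicate. Depth, a median of 252 UMIs in other cells, limits the rule, the lineage calls and single genes.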
